A study of Mus musculus with 4 samples.

Results

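Wnt9a and 9 other genes of the Wnt ligand family (Wnt2b, Wnt4, Wnt5a, Wnt5b, Wnt6, Wnt10a, Wnt10b, Wnt11 and Wnt16) were followed in cultured muscle stem cells (MuSC) with and without Prmt5, an arginine methyltransferase that places symmetric dimethyl marks on histones and other proteins. Wnt9a was selected on its measured group means, of which that of Prmt5sKO was much higher than that of the controls in these same libraries. The other 9 were chosen by family, from the relatives of Wnt9a with a row in the table of 20065 genes, to see whether they moved with it. A further 4 relatives with a row, Wnt2, Wnt3, Wnt7b and Wnt8b, are not among the 10 genes and are described beside them. The contrast that chose Wnt9a is therefore the contrast described, and the values of the 10 genes are given as a description, without p-values. RNA was sequenced from 2 control and 2 Prmt5sKO samples of satellite cells from limb and trunk muscles of adult mice on a C57BL/6 background, after depletion of ribosomal RNA. Control cells were Pax7CreERT2/Prmt5+/loxP (+TAM), labelled wild type although they carry 1 floxed allele, and mutant cells were Pax7CreERT2/Prmt5loxP/loxP (+TAM). Both groups thus shared the Pax7-driven, tamoxifen-inducible Cre and the TAM treatment, and the controls were heterozygous for the floxed allele, so that they are not cells with 2 unmodified copies of Prmt5. The cells were sorted as CD11b-, CD45-, CD31-, CXCR4+ and CD34+ before culture. For the sequencing the authors describe MuSC treated with hydroxytamoxifen, which they gave to cultured cells to inactivate Prmt5 in vitro.

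The deposited values are means of 2 libraries, from which the whole read counts of every library were recovered, with totals between 13240754 and 20047430 reads. The columns carry no replicate number, and the libraries of a group are called deeper and shallower. Where 2 values are given for a group, the deeper library comes first. No label says that the samples of a group came from separate animals, so a p-value measures only the spread between these samples, part of which may be technical. Normalized counts, which are reads divided by a scaling factor of the library, stood at 2273 and 2906 for Prmt5 itself in the controls and at 244 and 202 in Prmt5sKO. Prmt5 thus differed by -3.52 on the log2 scale (SE 0.27), and with limma-voom its adjusted p was 0.193, the smallest value among the 16212 genes tested. With calls defined by an adjusted p up to 0.05 together with a change of 2-fold or more, 0 genes were called (0% of the genes tested), while 2101 genes (13.0%) had an unadjusted p under 0.05. With a block that pairs the deeper library of 1 group with the shallower of the other, 346 genes were called, and with the opposite pairing 0. One library stood apart. The summed level of 10 markers of differentiating muscle was 184093 in the shallower Prmt5sKO library against 15203 in the deeper one. In the controls it was 10198 and 7050. Of the 10 markers 8 were higher in both Prmt5sKO libraries, where 25.2% of all genes tested were, and none was called. Xist was at 8668 and 23.3 in the controls and at 8.15 and 5655 in Prmt5sKO, so that 1 library of each group was high and the libraries of a group were not repeats of 1 RNA sample.

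Wnt proteins are secreted, lipid-modified signals. Porcn attaches the lipid and Wls carries the ligand to the cell surface, where Frizzled receptors bind it together with Lrp5 or Lrp6, or with Ror2 and related co-receptors. In the canonical branch the signal stabilizes beta-catenin, which enters the nucleus and acts with Tcf and Lef factors on target genes such as Axin2. In the non-canonical branches it acts on cell polarity and calcium. In skeletal muscle, Wnt signals are known to act on both the self-renewal and the differentiation of satellite cells.

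Wnt9a, a ligand known for its part in joint formation, had the widest separation of the groups among members with reads in every library. It had 108 normalized counts in the deeper control and 80.4 in the shallower control, against 622 and 886 in Prmt5sKO. Behind these values stood 96, 62, 839 and 881 reads, so that no library rested on few reads. Both Prmt5sKO libraries lay above both controls, and the lower Prmt5sKO library was 5.73 times the higher control. Within a group the libraries differed far less, by 1.35 times in the controls and 1.43 times in Prmt5sKO. The means were 94.4 ± 19.9 in the controls and 754 ± 187 in Prmt5sKO (SD, n = 2 each), and the fitted log2 fold change was 2.96 (SE 0.41). Leaving out any 1 library moved this value only between 2.72 and 3.23. From the highest log2 fold change down, Wnt9a was number 73 of the 11487 genes that averaged 50 normalized counts or more, and number 229 of all 16212 genes tested.

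Wnt9a lies on chromosome 11 from 59306928 to 59333552 on the plus strand (GRCm38). No annotated gene overlaps it. Wnt3a, its tandem partner in vertebrate genomes, lies 16175 bases away on the minus strand and had no row in the table. The nearest protein-coding genes with a row did not follow Wnt9a in size. Arf1, a small GTPase of the Golgi on the upstream side, had 5940 and 4861 normalized counts in the controls and 5115 and 5897 in Prmt5sKO, so that its groups overlapped. Snap47, a SNARE protein on the downstream side, had 1224 and 943 in the controls and 1406 and 2112 in Prmt5sKO with a log2 fold change of 0.68 (SE 0.28, limma-voom adjusted p = 0.389).

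Promoter sequence was read from RefSeq on GRCm38.p6, which held windows of 250 bases before to 50 bases after the start for 8 of the 10 members, 11 windows in all. The window of Wnt9a is shown because this gene carries the difference, and that of Wnt10b because it had about as many reads as Wnt9a in the deeper control yet did not separate the groups. The Wnt9a window is chr11:59306680-59306979 on the plus strand and the Wnt10b window chr15:98778101-98778400 on the minus strand, each written 5′ to 3′. Capitals mark E-boxes (CANNTG), the letters bound by MyoD and other helix-loop-helix proteins.
Wnt9a: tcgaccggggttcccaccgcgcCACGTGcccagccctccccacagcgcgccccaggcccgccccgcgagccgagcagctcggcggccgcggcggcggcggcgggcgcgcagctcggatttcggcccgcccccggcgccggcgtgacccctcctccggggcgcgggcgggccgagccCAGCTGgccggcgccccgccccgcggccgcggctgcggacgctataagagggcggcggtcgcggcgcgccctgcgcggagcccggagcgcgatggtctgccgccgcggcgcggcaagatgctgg
Wnt10b: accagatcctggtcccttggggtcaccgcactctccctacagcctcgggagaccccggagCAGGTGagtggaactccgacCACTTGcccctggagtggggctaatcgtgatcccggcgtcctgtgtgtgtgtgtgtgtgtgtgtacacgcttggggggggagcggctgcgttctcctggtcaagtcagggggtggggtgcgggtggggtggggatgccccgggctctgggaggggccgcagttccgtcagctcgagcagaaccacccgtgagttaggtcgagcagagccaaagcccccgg
The Wnt9a window is 83.3% G and C and holds 58 CG pairs, where the median of all 32851 windows is 7, which places it at the 99.9th percentile. The Wnt10b window is 66.3% G and C with 18 CG pairs. Both hold 2 E-boxes, and 72.3% of all windows hold at least 1. The form CAGCTG, which is 1 kind of CANNTG and is preferred by myogenic factors, occurs in the Wnt9a window 1 time, in no window of another member, and in 16.3% of all windows. GGGCGG, the letters of a GC box read on both strands, occurs 5 times in the Wnt9a window, not at all in that of Wnt10b, and in 35.7% of all windows. It is not particular to Wnt9a, since the Wnt4 window holds it 8 times, that of Wnt6 6 times and that of Wnt2b 4 times. The Wnt16 window holds none. CTTTGA and CTTTGT, the core letters of Tcf and Lef sites read on both strands, occur in neither window, and in 16.0% and 18.7% of all windows. A high CG content was shared by other members whose groups overlapped, since the Wnt4 window holds 51 CG pairs and 1 of the Wnt5b windows 47. These matches describe letters and not binding.

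**Figure D1:**
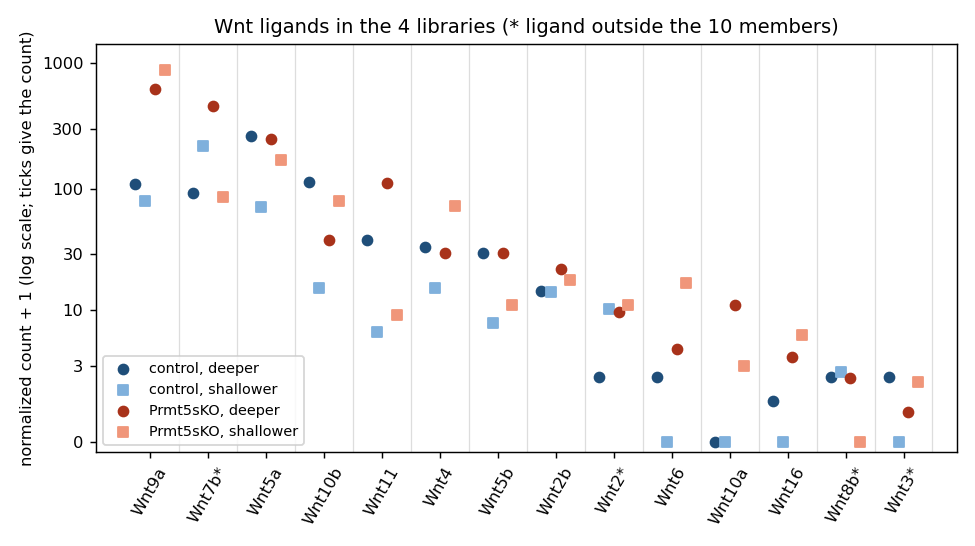
Normalized counts of the 14 Wnt ligands with a row in the table, in each of the 4 libraries, on a log axis after adding 1 (circles are the deeper and squares the shallower library of a group, blue control and red Prmt5sKO, asterisks mark ligands outside the 10 members). Wnt9a shows the 2 Prmt5sKO libraries at 622 and 886 above controls at 108 and 80.4, while the symbols of Wnt5a, Wnt10b, Wnt11, Wnt4 and Wnt5b interleave.

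Among the relatives that mostly signal through beta-catenin, Wnt2b, Wnt6, Wnt10a and Wnt16 had both Prmt5sKO libraries above both controls, and all of these rested on few reads. Wnt2b, a ligand known from retinal development, had 14.7 and 14.3 normalized counts in the controls and 22.2 and 18.1 in Prmt5sKO. The groups were separate but by a narrow gap, and the log2 fold change of 0.46 was smaller than its standard error of 0.71. Wnt6, which keeps the dermomyotome of the embryonic somite epithelial, had 2.26 and 0 in the controls and 4.45 and 17.1 in Prmt5sKO. These are 2 reads in the controls and 23 in Prmt5sKO, a ratio of 8.12 after scaling by depth (95% interval 2.01 to 71.1, exact binomial, counting error only). Wnt10a, needed for teeth and hair, was at 0 in both controls and at 11.1 and 3.02 in Prmt5sKO. Its 15 and 3 reads in Prmt5sKO were 4.24 times a floor of 3 reads over both controls after scaling. This ratio leaves out the counting error of the Prmt5sKO reads and is no lower bound. Wnt16, which limits bone resorption, had 1.13 and 0 in the controls and 3.70 and 6.03 in Prmt5sKO. With 1 control read and 11 reads in Prmt5sKO, its ratio was 7.77 (95% interval 1.13 to 334). Wnt6 and Wnt10a are neighbours on chromosome 1, 6193 bases apart on the plus strand, and the higher Prmt5sKO library was the shallower one for Wnt6 and the deeper one for Wnt10a.

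Wnt10b, which holds back fat cell formation and is known to keep muscle precursors from that fate, did not follow Wnt9a. It had 113 and 15.6 normalized counts in the controls and 38.5 and 80.5 in Prmt5sKO. The controls thus differed by 7.26 times and enclosed both Prmt5sKO values. The fitted log2 fold change was 0.27 (SE 0.95), although the plain mean was 64.3 ± 68.9 in the controls and 59.5 ± 29.6 in Prmt5sKO (SD, n = 2 each). Without the shallower control the log2 fold change was -1.06, without the shallower Prmt5sKO library -0.21, and without the deeper control 1.73. Its direction therefore turned with the library left out.

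The members best known for non-canonical signalling, Wnt4, Wnt5a, Wnt5b and Wnt11, all had groups that overlapped. Wnt4, a kidney and gonad ligand that muscle fibres also secrete, had 33.9 and 15.6 normalized counts in the controls and 30.4 and 73.4 in Prmt5sKO. Only the shallower Prmt5sKO library, the one with the high differentiation markers, lay above both controls. The means were 24.7 ± 13.0 in the controls and 51.9 ± 30.4 in Prmt5sKO (SD, n = 2 each). The log2 fold change was 0.92 (SE 0.77), and 0.35 without that library. Wnt5a, the main ligand of Ror2, had 264 and 71.3 in the controls and 250 and 171 in Prmt5sKO. Here the deeper control was the highest library of all and the shallower control the lowest. The means were 168 ± 137 in the controls and 210 ± 55.7 in Prmt5sKO (SD, n = 2 each). Its log2 fold change was 0.57 (SE 0.60), and it was -0.33 without the shallower control. Wnt5b, its closest paralog, had the smallest log2 fold change of the members past the filter on low values. It stood at 30.5 and 7.78 in the controls and 30.4 and 11.1 in Prmt5sKO. The means were 19.1 ± 16.1 and 20.7 ± 13.7 (SD, n = 2 each). The log2 fold change of 0.25 (SE 0.97) became -0.64 without the shallower control and -0.53 without the deeper Prmt5sKO library. Wnt11, a ligand of convergent extension, had 38.4 and 6.48 in the controls and 112 and 9.05 in Prmt5sKO. The means were 22.5 ± 22.6 in the controls and 60.5 ± 72.7 in Prmt5sKO (SD, n = 2 each), and the control mean lay within the spread of Prmt5sKO. A single library, the deeper Prmt5sKO one, stood above the rest. The log2 fold change of 1.09 (SE 1.54) was -0.87 without it and -0.09 without the shallower control.

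Part of these values shares a locus with another gene. Fbxl14 lies on the opposite strand within Wnt5b and was far more abundant, with 767 and 787 normalized counts in the controls and 543 and 451 in Prmt5sKO. The antisense gene Gm2670 overlaps Wnt5a and had between 2.01 and 18.1 normalized counts in the 4 libraries. Wnt2b, Wnt6 and Wnt11 also overlap predicted genes. Whether the counting used strand is not given in the sources used here, so reads of overlapping genes on opposite strands may not be separated in Wnt5a, Wnt5b, Wnt6 and Wnt11.

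**Figure D2:**
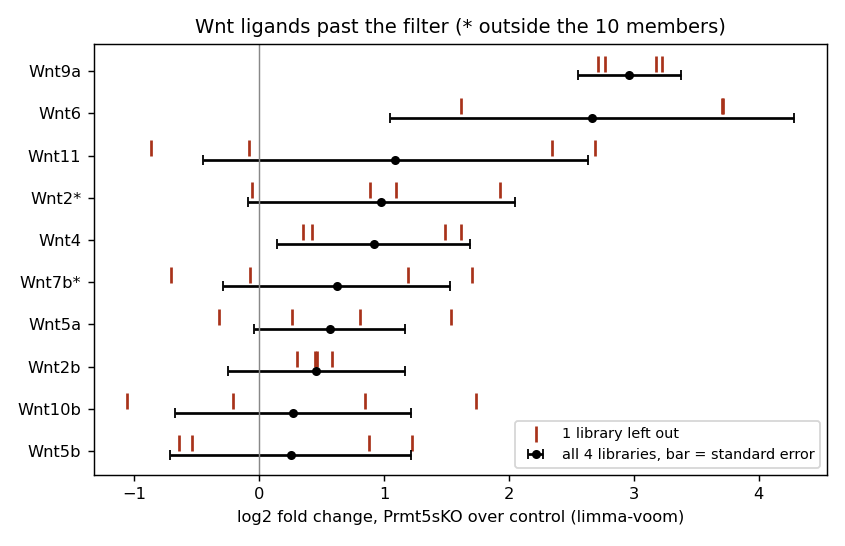
Fitted log2 fold changes of the 8 members and 2 other ligands past the filter on low values (points with bars for the standard error), with the values after leaving out 1 library at a time as ticks. Wnt9a stays between 2.72 and 3.23, and the ticks of Wnt5a, Wnt5b, Wnt10b and Wnt11 fall on both sides of 0.

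Counted over all 10 members, both Prmt5sKO libraries were above both controls for 5 (Wnt9a, Wnt2b, Wnt6, Wnt10a and Wnt16), below both for 0, and overlapping for 5. Among all 20065 genes 24.1% were above and 21.8% below, and among the 16212 tested 25.2% and 23.6%. Since Wnt9a was chosen for this difference, 4 of the 9 relatives are what remains, all of them at 22.2 normalized counts or less in every library. An average of 5 normalized counts over all libraries, the filter on low values, was reached by 8 of the 10 members, by Wnt6 only through its Prmt5sKO reads, and was missed by Wnt10a and Wnt16. As a description of those that passed, all 8 had a positive log2 fold change, with a median of 0.74, or 0.57 for the 7 relatives. Over all genes tested the median was 0.02 and 51.4% of the values were positive. Selection fixed the sign of Wnt9a and the filter that of Wnt6, so the signs and medians are no test against all genes. Of these 7 relatives, Wnt5a, Wnt5b, Wnt10b and Wnt11 lost that sign when 1 library was left out, while Wnt2b, Wnt4 and Wnt6 kept it in every such fit that could be made.

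The 2 controls differed in 1 direction over the more abundant members, though not over the whole family. All 7 members with more than 3 reads in the shallower control were higher in the deeper control, where 49.1% of 15199 such genes were. Wnt5a, Wnt5b, Wnt10b and Wnt11 were at least 3 times higher there, as were 3.36% of those genes. Outside the members the order was the opposite, with Wnt7b at 92.7 and 220 and Wnt2 at 2.26 and 10.4 in the controls. Without Wnt9a the members summed to 498 normalized counts in the deeper control and 131 in the shallower control, against 502 and 389 in Prmt5sKO. The deeper control thus lay within the range of the Prmt5sKO libraries, and the shallower control was the lowest. Over all 14 ligands without Wnt9a the sums were 598 and 364 in the controls and 971 and 488 in Prmt5sKO, where the shallower control was again the lowest but closer to the others. The summed level of 8 fibroblast markers was 19502 and 7714 in the controls and 18075 and 29271 in Prmt5sKO. Col1a2 and Col3a1 carried this sum, and its order within Prmt5sKO was the reverse of that of the ligands. The 5 markers that are not collagens were all higher in the shallower control, among them Dcn at 7.91 and 115 in the controls, and Lum had 0 reads in the other 3 libraries. Markers of smooth muscle or pericytes summed to 3214 and 1787 in the controls and to 4896 and 6860 in Prmt5sKO. Of these 5 markers 4 were higher in both Prmt5sKO libraries, where 25.2% of all genes tested were. The part of such cells in the ligand values was not tested. In bulk RNA, fewer cells of a type and less RNA per cell cannot be told apart.

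Per kilobase of exon, the scale on which genes can be compared, Wnt9a was already among the leading ligands of the control cells. Its mean was 28.4 normalized counts per kb in the controls, behind Wnt7b at 32.0 and ahead of Wnt5a at 21.5 and Wnt10b at 18.9. These 4 did not differ beyond their spread, since Wnt7b lay at 18.9 and 45.0, Wnt5a at 33.8 and 9.12 and Wnt10b at 33.2 and 4.58 in the controls. Then came, among the members, Wnt5b at 7.21, Wnt4 at 5.90, Wnt11 at 5.43, Wnt2b at 3.45 and Wnt6 at 0.516, with Wnt16 at 0.130 and Wnt10a at 0. Neighbours among these members overlapped, except that both values of Wnt2b lay above both of Wnt6. In Prmt5sKO the mean of Wnt9a was 226 per kb, followed by Wnt7b at 55.2, Wnt5a at 26.9, Wnt10b at 17.5, Wnt11 at 14.6 and Wnt4 at 12.4. Both Prmt5sKO values of Wnt9a, 187 and 266 per kb, lay above the higher value of Wnt7b, 93.0 per kb in the deeper library. The members below Wnt7b again overlapped with their neighbours in this order.

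**Figure D3:**
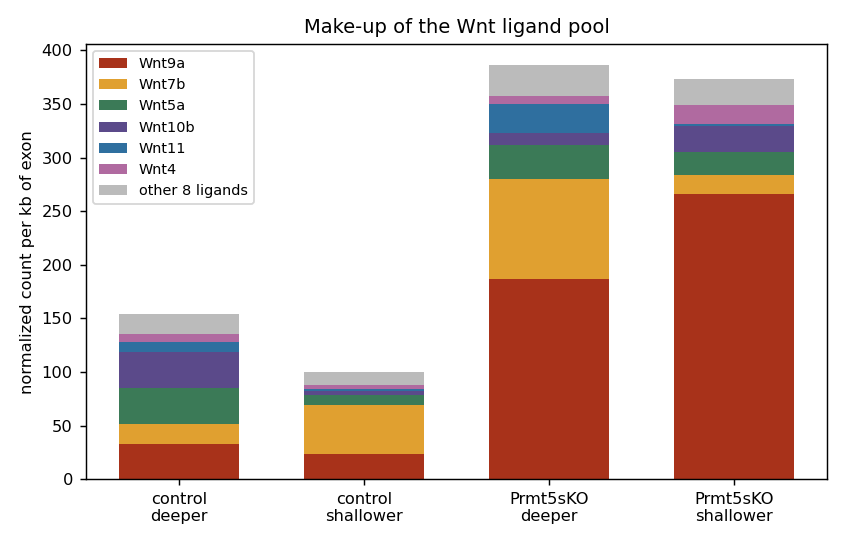
Normalized counts per kb of exon of all 14 ligands, stacked for each of the 4 libraries. Wnt9a makes up 21.1% and 24.2% of the stack in the controls and 48.3% and 71.3% in Prmt5sKO.

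Among the reads of all 14 ligands, Wnt9a took 15.4% in the deeper control (95% interval 12.6 to 18.4, exact binomial) and 18.1% in the shallower control (14.1 to 22.6). Of the Prmt5sKO libraries, the deeper gave 39.0% (37.0 to 41.1) and the shallower 64.5% (61.9 to 67.0). The intervals of the controls overlapped and those of the Prmt5sKO libraries did not, but they cover counting error only. Replicates differed far beyond it (chi-square per gene 88.5 in the controls and 157 in Prmt5sKO), so the intervals are no test between libraries or groups. In normalized counts, Wnt7b differed most among the other ligands between the Prmt5sKO libraries. It had 456 and 85.5 normalized counts there, beside 92.7 and 220 in the controls. By ratio Wnt11 differed more, by 12.4 times between the Prmt5sKO libraries against 5.33 times for Wnt7b. Wnt7b, a ligand of lung and bone, had a log2 fold change of 0.62 (SE 0.91) and overlapping groups. Wnt2, Wnt3 and Wnt8b were near the floor, with at most 13 reads in any library. The groups of Wnt2 and Wnt3 overlapped, and those of Wnt8b were barely apart in the other direction, at 2.26 and 2.59 in the controls and 2.22 and 0 in Prmt5sKO. Of the 19 mouse Wnt ligands, Wnt1, Wnt3a, Wnt7a, Wnt8a and Wnt9b had no row.

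The genes that release the ligand were both higher in Prmt5sKO, though neither passed a test. Porcn had 101 and 101 normalized counts in the controls and 139 and 358 in Prmt5sKO. Its log2 fold change was 1.07 (SE 0.60), with a limma-voom adjusted p of 0.482. Wls had 5896 and 3098 in the controls and 7179 and 6647 in Prmt5sKO, a log2 fold change of 0.69 (SE 0.33) with a limma-voom adjusted p of 0.425. Wls was thus abundant in every library, and the shallower control was again the lowest.

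Over the rest of the pathway, 99 genes were listed by role, of which 87 had a row and 78 were tested. None was called, and the smallest limma-voom adjusted p was 0.284. An unadjusted p under 0.05 was reached by 3 genes that were higher and 4 that were lower in Prmt5sKO, 8.97% of the 78 against 13.0% of all genes tested. Groups did not overlap for 16 higher and 20 lower genes, 46.2% against 48.8% of all genes, and the median log2 fold change was -0.05. By neither measure was the share of pathway genes above that of all genes, and the directions were mixed.

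Among the 16 receptors and co-receptors, 2 were higher and 5 lower in both Prmt5sKO libraries. Over all genes tested 25.2% were higher and 23.6% lower, shares that also apply to the counts of the other roles. Ror2, the co-receptor of Wnt5a, had 134 and 113 normalized counts in the controls and 64.5 and 33.2 in Prmt5sKO (log2 fold change -1.36, SE 0.49, limma-voom adjusted p = 0.347). Fzd10 had 0 and 28.5 in the controls and 37.0 and 64.4 in Prmt5sKO, so that the shallower control was close to Prmt5sKO and only the deeper one at 0 was far from it. Of the extracellular inhibitors 3 of 10 tested were higher and 1 lower in both. Kremen2, which with Dkk proteins removes Lrp6 from the surface, had 2.26 and 2.59 in the controls and 32.6 and 57.3 in Prmt5sKO (log2 fold change 3.81, SE 1.11, limma-voom adjusted p = 0.295). Tpbg, an inhibitor of the canonical branch, had 1472 and 1056 in the controls and 713 and 643 in Prmt5sKO. Its log2 fold change of -0.88 (SE 0.25) had the smallest p of the pathway.

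Inside the cell, 5 of the 17 cytoplasmic genes were higher and 7 lower in both Prmt5sKO libraries. Groups thus did not overlap for 70.6% of them, against 48.8% of all genes tested, in both directions. The higher cytoplasmic genes included Axin2 and Nkd1, feedback inhibitors that are also common target genes of beta-catenin. Axin2 was close to absent in the controls, with 0 and 1.30 normalized counts, and had 5.93 and 17.1 in Prmt5sKO. Nkd1 had 4.52 and 1.30 in the controls and 20.7 and 44.3 in Prmt5sKO. Both were higher in the shallower than in the deeper Prmt5sKO library, the order also seen for Wnt9a and for the differentiation markers. Apc2, a scaffold of the destruction complex, had 119 and 41.5 in the controls and 221 and 156 in Prmt5sKO. The target list as a whole did not follow Axin2 and Nkd1. Of 10 target genes tested, 2 were higher and 3 lower in both Prmt5sKO libraries, and the median log2 fold change was -0.32. The targets Rnf43 and Notum had a row but were below the filter on low values. Rnf43 was higher in both Prmt5sKO libraries, at 5.19 and 3.02 against 1.13 and 1.30 in the controls, and the groups of Notum overlapped. Znrf3, a target that removes Frizzled receptors, had 826 and 938 in the controls and 613 and 607 in Prmt5sKO. None of the 12 nuclear factors was higher in both, and 2 were lower, among them Bcl9, a partner of beta-catenin, with a log2 fold change of -0.53 (SE 0.23). In the planar polarity branch 4 of 12 were higher and 2 lower, with Celsr3 at 1.92 (SE 0.86) and Vangl2 at -0.70 (SE 0.25) on the log2 fold change scale.

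**Figure D4:**
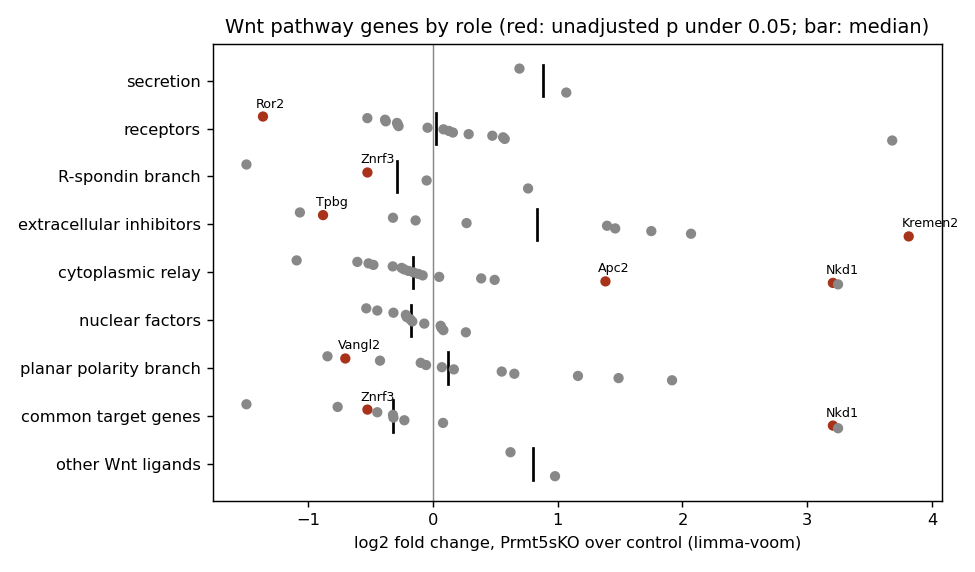
Log2 fold changes of the tested pathway genes by role, each point 1 gene, red where the unadjusted p was under 0.05, and a bar at the median of each role (some genes stand in 2 roles). The 78 genes spread on both sides of 0 with a median of -0.05.

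The genes whose pattern over the 4 libraries was most like that of Wnt9a came from outside the pathway lists. These lists hold only 87 of the 20065 genes of the table, so their absence says little about the pathway. Likeness was the distance between log2 normalized counts, each gene centred on its own mean, among 11487 genes with a mean of at least 50, where a distance of 0 is the same pattern. Pltp, a phospholipid transfer protein, was nearest at 0.262, with 36.2 and 25.9 normalized counts in the controls and 167 and 261 in Prmt5sKO. Rac3, a small GTPase, followed at 0.500, the small nucleolar RNA Snord7 at 0.538, the hyaluronidase Hyal1 at 0.626 and the carboxylesterase Ces2g at 0.641. The measure covers only 4 libraries, and the difference between the groups makes up most of each pattern. Of the other ligands only Wnt5a, Wnt7b and Wnt10b were abundant enough to enter it, and they were not among the 5.

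**Figure D5:**
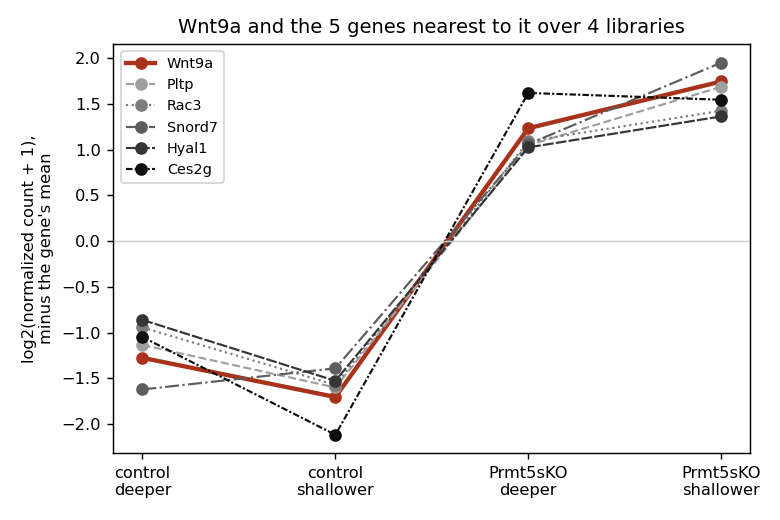
Log2 of the normalized count plus 1, minus the gene's own mean, in the 4 libraries for Wnt9a (thick red line) and the 5 genes nearest to it. All 6 lie below their mean in both controls and above it in both Prmt5sKO libraries, Pltp closest to Wnt9a at a distance of 0.262.

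The muscle differentiation markers differed more between the Prmt5sKO libraries than Wnt9a did. Between the Prmt5sKO libraries these 10 markers were between 5.26 and 89.4 times higher in the shallower one, while Wnt9a was 1.43 times higher. Without the shallower Prmt5sKO library the log2 fold change of Wnt9a was 2.72. In the deeper Prmt5sKO library Wnt9a stood at 622, and 8 of the 10 markers there also lay above both controls. Myog was at 3707 against 1436 in the deeper control, Mymx at 87.4 against 27.1 and Ckm at 116 against 39.6. Mymk at 508 against 272, Acta1 at 4951 against 2366 and Actn2 at 520 against 303 were also higher. Myh3 at 3024 against 2858 and Tnnt3 at 966 against 901 were close. Myh8 at 54.8 against 138 and Tnnt1 at 1268 against 1857 were lower. The shallower control had Tnnt1 at 1725, again above the deeper Prmt5sKO library, but Myh8 at 19.5, below it. The part of differentiation in the Wnt9a values was not tested. The myoblast markers were high in all libraries, with sums between 41580 and 72931 over 7 genes. Endothelial markers summed to at most 163 and haematopoietic markers to at most 126 in any library, both highest in the shallower control. Ptprc and Adgre1, defining markers of blood cells, had no row. Schwann cell markers summed to between 28.2 and 52.0.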

How the data were processed

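Total RNA of 2 control and 2 Prmt5sKO samples was sequenced after depletion of ribosomal RNA. The authors trimmed the reads, aligned them to GRCm38 (mm10, STAR 2.4.0a per the submitters' processing notes), counted them per gene, and used DESeq2 (1.62 in the same notes). The deposited values are a signal: for each group the authors averaged the counts after division by size factors, and the lowest average over all libraries is 0.90. Deposited columns of the authors' fold changes and p-values were not used. All group means lie on a grid set by 2 step sizes, 1 per library, and the reads of each library were recovered from it, whole for 100% of genes, with a largest relative residual of 7.06e-15. Replicates differed beyond sampling noise (chi-square per gene 88.5 in the controls and 157 in Prmt5sKO).

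Reads were scaled by trimmed mean of M-values (TMM, trims of 30% and 5%), genes averaging 5 normalized counts or more were retained, and groups were compared with limma-voom (limma 3.58.1, R 4.3.3) with Benjamini-Hochberg adjustment over 16212 genes. The code was tested on simulated data. With 2 samples per group, the members' values carry wide errors at low counts. Intervals are exact binomial at 95% and cover counting error only. Floors are 3 reads over the controls and leave out the counting error of the Prmt5sKO reads. Symbols, positions and exon lengths came from GENCODE M21, which held 19782 of 20065 identifiers. The members and gene lists were chosen with earlier results of these data known. Named genes are the 10 members, the other ligands with a row, the 10 pathway genes with the smallest p plus Porcn, Wls and Axin2, the 5 genes most like Wnt9a, its nearest neighbours with a row, and Prmt5. Myc, Daam2, Rnf43, Notum, Fbxl14, Gm2670, Xist and single markers are named beside results that they touch and were chosen after their values were seen.

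Alternatives were the authors' size factors, upper-quartile factors, library size only, no filter, a minimum of 20, limma-trend, a replicate block in both possible pairings, and leaving out each library.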

Additional observations from a re-analysis of the deposited data

How the results depend on the processing

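The log2 fold change of Wnt9a lay between 2.72 and 3.23 over all 12 alternatives, the same as its range when each library was left out in turn. Of 103 values of the other 9 ligands past the filter under the alternatives, 92 kept their sign and 11 changed it. All but 1 of the 11 changes came from leaving out a library. The remaining 1 was Wnt10b, at -0.10 with a replicate block that paired the deeper libraries.

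Replicate numbers cannot be tied to the columns, and both pairings were therefore run as a block. Deviations of the paired libraries from their group means correlated at -0.29 over 11487 genes with the deeper libraries paired. The crossed pairing swaps the libraries of 1 group, so its value of 0.29 is the same number with the sign reversed. Xist, high in the deeper control and the shallower Prmt5sKO library, was alike within the pairs of the crossed pairing, which is a hint from the data and not from the labels. With the deeper libraries paired, 0 genes were called and Wnt9a was at 2.96. With the crossed replicate block, 346 genes were called, 3155 genes and 13 pathway genes had an unadjusted p under 0.05, no pathway gene was called, and Wnt9a was at 2.99. Without each library in turn, between 0 and 489 genes were called, between 658 and 2969 had an unadjusted p under 0.05, and the same counts for pathway genes were 0 to 2 and 3 to 16. Such a fit assumes that the lone library of a group varies like those of the other group. The 489 calls arose without the deeper Prmt5sKO library, with Myc (log2 fold change -1.30, limma-voom adjusted p = 0.0420) and Daam2 (2.95, 0.0347) as the called pathway genes, and 55 genes were called without the shallower one. Scaling by library size only moved the median log2 fold change of all genes from 0.02 to 0.13 and Wnt9a to 3.08, and 0 pathway genes were called with it.

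With at most 17 reads for Wnt6, Wnt10a and Wnt16 in any library, the depth limits what can be said of their size.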
